A study of Mus musculus with 21 samples.

Results

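The livers of mice killed 1 h after partial hepatectomy (PH) were compared with the livers of untreated mice over all genes measured. The 6 arrays titled as partial hepatectomy at 1 h (3) or as control liver (3) were taken, of 21 arrays in the series. All mice were CD-1 females, 3 months old by the methods, and each array held the total liver RNA of 1 mouse. Mice of the PH group had lost 70% of the liver mass by surgery. Control mice had received no treatment and were taken at time 0, and sham-operated mice, vehicle-treated mice or mice left for 1 h were not among the groups used here, so that the loss of liver mass cannot be told apart from anaesthesia, surgery or the time that had passed. The same series holds later PH livers (3 and 6 h) and livers taken 1, 3 or 6 h following a single gavage of 3 mg/kg TCPOBOP (TCP), a ligand of the constitutive androstane receptor that makes the liver grow without tissue loss, with 3 mice in each group. These served only to show where the 1 h livers differed.

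After PH the remaining hepatocytes leave quiescence together, divide, and restore the mass of the organ. The earliest step, called priming, is known for immediate early genes, whose transcription is switched on by factors that are already present in the cell, and for signals from resident macrophages (Kupffer cells) such as cytokines. Many immediate early genes encode subunits of the transcription factor AP-1 or proteins that switch signalling off again.

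RNA was measured on Illumina mouse beadchips. The values below are the deposited signals after background correction, quantile normalisation and log2 transformation, so that a difference of 1 is a doubling, and they are called log2 signal. The brightest detected probe stood for each gene, 11442 genes were tested, and changes are given as PH 1 h minus control with a standard error (SE) that limma pooled over all 21 arrays. Calls needed a p under 0.05 after Benjamini-Hochberg adjustment over all genes together with a 1.5-fold difference or more. Probes detected (at p under 0.05 in the deposited detection values) numbered 16938 to 17973 on the PH 1 h arrays and 16827 to 17835 on the control arrays, and the median raw signal was 109.2 to 115.3 on the PH 1 h arrays and 119.8 to 132.9 on the control arrays. The summed signal of 8 hepatocyte markers was 191381 to 217696 linear units at 1 h after PH and 178611 to 236418 in control livers, and none of them was called. The 3 PH 1 h arrays lay on beadchip 3 with control replicate 2, whereas control replicates 1 and 3 lay on beadchips 1 and 4. All 3 controls, and no other array, were at the first position of their beadchip, which cannot be told apart from the control group.

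One hour after PH 46 of the 11442 genes were called (0.402%). Of these, 32 were higher (0.28%) and 14 were lower (0.122%) in PH livers. The share of higher genes among the calls was 69.6%, and it was 51.9% with a larger offset before the log, 56.8% with median scaling, 47.2% with no background correction and 46.2% in the authors' normalised values. Fos, Atf3, Gadd45b, Dusp1 and Fosb led the rises, while Angptl4, Cdkn3, Amn, Birc5 and Lgals4 led the falls. Fos, Atf3 and Fosb encode early transcription factors, Dusp1 an inhibitor of signalling and Gadd45b a stress sensor. At an unadjusted p under 0.05 there were 651 genes higher and 570 lower (10.7% of all genes together). The PH 1 h arrays did not overlap the control arrays in any of the 46 called genes, as in 2526 genes in all (22.1%), and the median change over all genes tested was 0.0.

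The 3 PH 1 h mice did not respond alike. Among the 32 genes called higher, replicate 1 was the lowest of the 3 PH arrays in 17 and replicate 3 was the highest in 16. The number of calls was 109 without PH 1 h replicate 1, 37 without replicate 2 and 9 without replicate 3. It was 9, 7 and 47 without control replicates 1, 2 and 3. The genes called changed as well as their number. Of the 46 genes, 40, 21 and 7 were called without PH 1 h replicates 1, 2 and 3. Without control replicates 1, 2 and 3 it was 9, 7 and 28 of them. Of the 46 genes, 7 kept their call in each of these 6 fits (Fos, Dusp1, Fosb, Il1b, Ccl4, Amn and Angptl4), and 2 kept it in none (Thumpd1 and Tef). All 46 kept their direction in all 6, which had to be so because their PH and control arrays did not overlap. Once the model held the beadchip as a block, 5 genes were called (Sort1, Il1b, Ccl4, Pcsk4 and Angptl4), and all 46 had the same direction. Within beadchip 3, against its single control, the direction of the 46 was again fixed by the lack of overlap. In the normalised values of the authors, whose background step is not given in the sources used here, 13 genes were called, and 11 of them were among the 46.

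**Figure D1:**
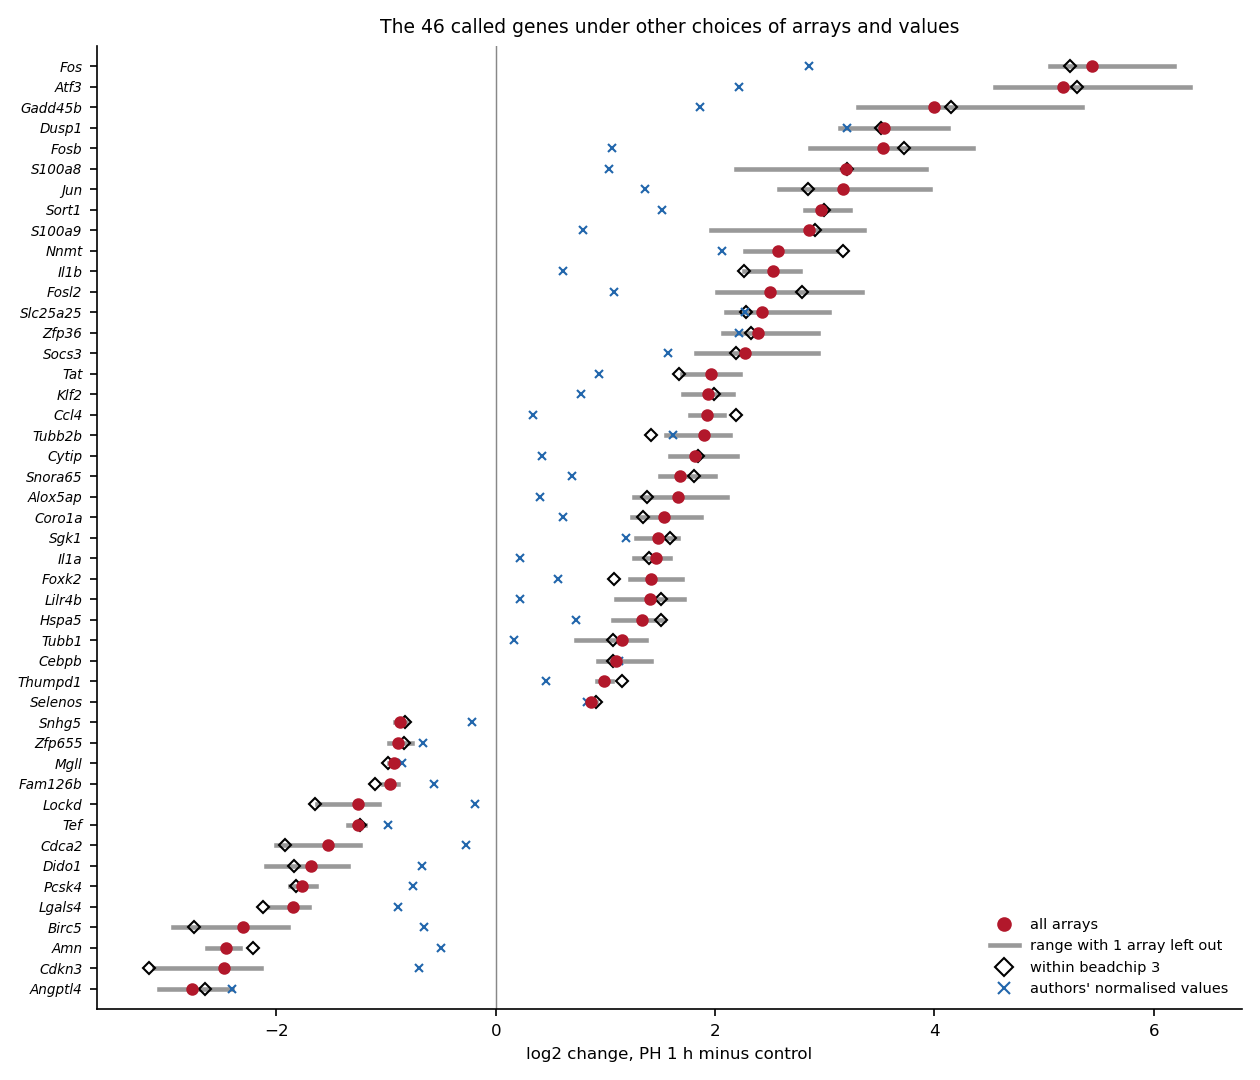
The 46 called genes, ordered by the log2 change of PH 1 h minus control on the horizontal axis. Filled circles give the change over all arrays, from 5.44 for Fos to -2.77 for Angptl4. Grey bars give the range of the 6 fits that left out 1 array, diamonds the change against the control on beadchip 3 and crosses the change in the authors' normalised values. All lie on the same side of 0 as the circles, which for bars and diamonds had to be so because the arrays do not overlap.

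AP-1 is a dimer of a FOS and a JUN protein, and 4 of its 6 subunits tested were called, all higher, with a median change of 2.83 over the 6. Of all genes tested 0.28% were called higher. Fos, the founding member, had a log2 signal of 9.50, 11.65 and 11.75 on the PH 1 h arrays, against 6.04, 5.72 and 4.8 on the control arrays. It rose by 5.44 (SE 0.76, limma adjusted p = 0.00234), which is 43.5-fold. Fos was detected on 2 of the 3 control arrays, so that the size of its rise is uncertain. Fosb, which encodes a close relative, had 6.66, 9.62 and 8.58 in PH livers and 4.86, 4.57 and 4.82 in control livers, where it was not detected on any array. Its rise was at least 9.32-fold (change 3.53, SE 0.53, limma adjusted p = 0.00386), counted against the dimmest detected signal of the control arrays. In both genes PH replicate 1 responded least, and its value still lay above every control.

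Jun, the main partner of the FOS proteins, had 7.52, 9.51 and 10.28 in PH livers and 5.74, 6.26 and 5.82 in control livers (change 3.17, SE 0.55, limma adjusted p = 0.011). Fosl2 had 7.05, 9.69 and 9.47 in PH livers and 6.53, 5.95 and 6.25 in control livers (change 2.50, SE 0.47, limma adjusted p = 0.0194), so that replicate 1 was only just above the highest control. Its second, dim probe had a change of -0.14. The other subunits tested, Junb and Jund, had changes of 1.90 (SE 0.55, limma adjusted p = 0.137) and 1.25 (SE 0.35, limma adjusted p = 0.121) and were not called. Junb, named here after its values were seen, had 8.72 on PH replicate 1, no higher than the 8.83, 8.96 and 8.91 of the controls, but 11.89 and 11.79 on the other PH arrays. Atf3, a stress-induced factor that pairs with JUN proteins, had 7.61, 10.99 and 11.18 in PH livers and 4.61, 4.63 and 5.03 in control livers. It was not detected in controls and rose at least 29.1-fold (change 5.17, SE 0.90, limma adjusted p = 0.011).

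All 5 of these called factors were lowest on PH replicate 1. Fos and Fosb kept their call whichever array was left out, whereas Jun lost it without PH 1 h replicate 3, control replicate 1 or control replicate 2, and Atf3 and Fosl2 lost it without each of these arrays and without PH 1 h replicate 2. The 5 changes were 2.02 to 6.33 in those fits, with an adjusted p of up to 0.127. Under the beadchip block they were 2.74 to 5.83 (adjusted p 0.0555 to 0.272), and within beadchip 3 they were 2.79 to 5.30. In the authors' values they were 1.06 to 2.86 and none was called. In a model of the PH 1 h and control arrays alone, Fosb, Jun and Fosl2 lost their call, and Fos and Atf3 kept it.

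**Figure D2:**
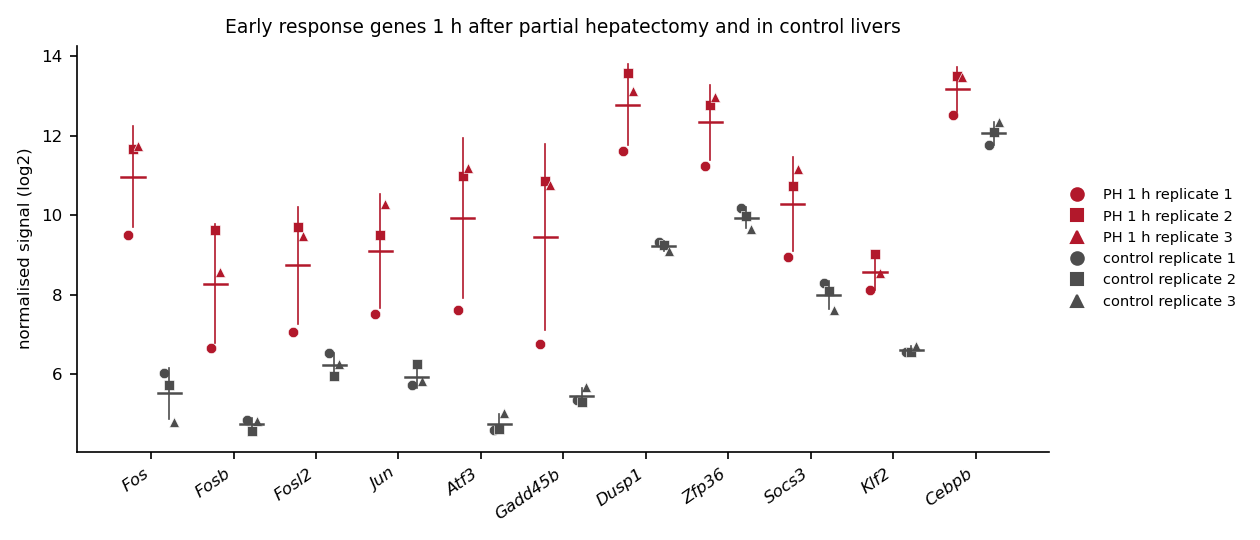
Log2 signal of 11 early response genes on each PH 1 h array (red, left of each pair) and each control array (grey), with a symbol for each replicate number, a horizontal bar for the mean and a vertical bar for 1 SD (n = 3). PH replicate 1 (red circle) is the lowest PH array in each of the 11 genes, as for Gadd45b with 6.76 against 10.85 and 10.75 on the other PH arrays.

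Dusp1, Zfp36, Socs3 and Gadd45b, which encode inhibitors of signalling and a stress sensor, rose, and were grouped after their values were seen. Each was the 1 call of its own list. Dusp1, a phosphatase that switches MAP kinases off, had 11.62, 13.57 and 13.13 in PH livers and 9.33, 9.26 and 9.11 in control livers (change 3.54, SE 0.55, limma adjusted p = 0.00543). Of the 10 MAP kinase phosphatases and Sprouty proteins tested, Dusp6 had a change of 1.30 (SE 0.33, limma adjusted p = 0.0913), Dusp5 of 1.23 and Dusp4 of 1.18. Zfp36, whose protein brings about the decay of cytokine mRNAs, had 11.23, 12.78 and 12.97 in PH livers and 10.18, 9.99 and 9.65 in control livers (change 2.39, SE 0.44, limma adjusted p = 0.0194). Among 6 mRNA decay factors it was the 1 call, and Btg2 had a change of 2.25 (SE 0.66, limma adjusted p = 0.148).

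Socs3, the feedback inhibitor of IL-6 and STAT3 signalling, had 8.94, 10.72 and 11.16 in PH livers and 8.30, 8.08 and 7.62 in control livers (change 2.27, SE 0.49, limma adjusted p = 0.0477). Of 9 genes for IL-6 receptors, STAT3 and SOCS proteins no other was called, with changes of 1.16 for Pim3 and 0.76 for Stat3. Gadd45b, a stress sensor of the hepatocyte, had 6.76, 10.85 and 10.75 in PH livers and 5.36, 5.31 and 5.69 in control livers (change 4.0, SE 0.75, limma adjusted p = 0.0199). Its list of 10 GADD45 and p53 response genes had a median change of 1.19 with 1 call, and Gadd45g and Cdkn1a, which encodes the cell cycle inhibitor p21, had changes of 2.28 (limma adjusted p = 0.118) and 2.04 (limma adjusted p = 0.279). Of these 4 called genes Dusp1 kept its call in every fit with an array left out. Gadd45b lost it without PH 1 h replicate 2 or 3 or control replicate 1 or 2, and Zfp36 and Socs3 also without control replicate 3, with an adjusted p of up to 0.242.

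Without PH 1 h replicate 1, a count made because that mouse stood apart, 109 genes were called (0.953%), of which 69 were not called over all arrays. Among the genes singled out in the lists for large changes, 13 that were not called over all arrays were called in that fit, 12 of them higher, after the array that was lowest in most of the rises had been dropped. Igfbp1, which encodes a binding protein of insulin-like growth factors made by hepatocytes, had 5.39, 9.86 and 9.83 in PH livers and 4.67, 4.70 and 5.35 in control livers. Its change was 3.45 over all arrays (SE 0.86, limma adjusted p = 0.0895) and 4.94 without that array (limma adjusted p = 0.000234). Gadd45g had 3.16 (limma adjusted p = 0.00808), Btg2 3.12 (limma adjusted p = 0.0139), Pim3 2.05 (limma adjusted p = 0.000232) and Plk3 1.93 (limma adjusted p = 0.00156) in that fit. Of 7 EGR, IER and NR4A early response genes none was called over all arrays, with 3 at an unadjusted p under 0.05 and changes of 1.72 for Ier3, 1.38 for Egr1 and 1.03 for Srf.

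Stretches of DNA that run from 250 bases before to 50 bases after the transcription start were looked up in RefSeq (GRCm38.p6) for 26 of the 32 genes called higher and for 11 of the 14 called lower. They are shown for the 5 of the 15 largest rises named above as AP-1 subunits or inhibitors of signalling whose window holds a match other than an E-box alone, and so were chosen for having one. The windows of Jun, Atf3 and Socs3 held no match, and that of Gadd45b held an E-box. Capitals mark matches, on either strand, to the motifs searched, which were the cyclic AMP response element TGACGTCA, the AP-1 site TGANTCA, the CArG box, the NF-kB site, the E-box CACGTG and the D-box TTATGTAA. No match overlapped one of another motif, and in Fosl2 a pair of NF-kB matches overlapped each other.
Fos, chr12:85473640-85473939, plus strand, NF-kB site: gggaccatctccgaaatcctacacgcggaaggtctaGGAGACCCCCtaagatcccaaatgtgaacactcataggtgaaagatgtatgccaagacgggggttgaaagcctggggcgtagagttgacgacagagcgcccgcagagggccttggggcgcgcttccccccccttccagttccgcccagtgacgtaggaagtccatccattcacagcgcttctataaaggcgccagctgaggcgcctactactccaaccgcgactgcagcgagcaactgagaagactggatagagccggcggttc
Fosb, chr7:19309996-19310295, minus strand, NF-kB site: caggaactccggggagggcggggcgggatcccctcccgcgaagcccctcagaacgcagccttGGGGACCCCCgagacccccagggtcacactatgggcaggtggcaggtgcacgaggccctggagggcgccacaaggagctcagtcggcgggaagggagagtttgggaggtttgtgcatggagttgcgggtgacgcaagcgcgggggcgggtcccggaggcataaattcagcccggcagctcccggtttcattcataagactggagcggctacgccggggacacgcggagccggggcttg
Fosl2, chr5:32136222-32136521, plus strand, NF-kB site: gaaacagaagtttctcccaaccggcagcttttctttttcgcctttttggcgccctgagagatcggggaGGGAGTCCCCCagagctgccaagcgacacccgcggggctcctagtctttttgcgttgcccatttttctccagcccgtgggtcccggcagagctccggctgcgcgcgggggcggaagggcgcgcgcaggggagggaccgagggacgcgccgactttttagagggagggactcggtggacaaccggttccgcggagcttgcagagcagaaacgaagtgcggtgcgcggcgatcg
Dusp1, chr17:26508423-26508722, minus strand, cyclic AMP response element and E-box: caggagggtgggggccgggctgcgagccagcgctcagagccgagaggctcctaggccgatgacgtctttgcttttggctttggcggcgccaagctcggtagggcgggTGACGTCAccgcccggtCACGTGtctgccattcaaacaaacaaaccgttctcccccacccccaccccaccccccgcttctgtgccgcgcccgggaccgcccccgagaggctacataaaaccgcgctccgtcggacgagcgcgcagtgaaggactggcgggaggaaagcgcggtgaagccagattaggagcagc
Zfp36, chr7:28379179-28379478, minus strand, CArG box: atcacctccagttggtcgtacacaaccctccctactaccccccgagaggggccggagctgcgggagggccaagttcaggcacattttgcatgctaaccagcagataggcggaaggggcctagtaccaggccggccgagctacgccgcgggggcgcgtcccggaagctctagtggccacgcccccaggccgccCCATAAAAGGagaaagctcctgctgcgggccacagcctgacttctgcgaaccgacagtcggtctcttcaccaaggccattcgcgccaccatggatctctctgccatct
The NF-kB match was at -214 in Fos, -188 in Fosb and -182 in Fosl2, counted from the start site to its first base, and no other gene called higher had one. That made 11.5% of the genes called higher with such a match, against 27.3% of those called lower and 12% of all genes tested that have a window. The cyclic AMP response element was found in 7.69%, 0% and 3.39% of these sets, in Dusp1 at -143 and in Slc25a25 at -150. The CArG box was found in Zfp36 at -58 (3.85%, against 0% of the genes called lower and 1.71% of all). The AP-1 site was found in 7.69%, 0% and 6.88%, the E-box in 15.4%, 27.3% and 11.7%, and the D-box in 0%, 0% and 0.854%. These are matches of letters within 300 bases, and whether a factor sat there was not measured.

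Other transcription factors moved less. Klf2, a Kruppel-like factor best known from endothelium and lymphocytes, had 8.13, 9.03 and 8.54 in PH livers and 6.57, 6.57 and 6.72 in control livers (change 1.94, SE 0.38, limma adjusted p = 0.0246). Among 9 Kruppel-like factors it was the 1 call, and Klf3 had a change of 1.72 (limma adjusted p = 0.0942). Cebpb, a factor of liver growth and of the acute phase, had 12.51, 13.50 and 13.47 in PH livers and 11.76, 12.09 and 12.34 in control livers. It rose by 1.10 (SE 0.23, limma adjusted p = 0.0437), while its relative Cebpa, a factor of the mature hepatocyte, had a change of -0.59 (limma adjusted p = 0.496). Myc had one of 0.32 (limma adjusted p = 0.819) but was not detected on any PH 1 h or control array, so that a change could hardly be seen. Foxk2, a forkhead factor, rose by 1.42 (SE 0.29, limma adjusted p = 0.0293) on its brightest probe, whereas its dimmer probes had changes of 0.77 and -0.20. Each of the 3 lost its call without PH 1 h replicate 2 or 3 or control replicate 1 or 2, Klf2 and Foxk2 also without control replicate 3, with changes of 0.93 to 2.16.

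Genes of cytokines and leukocytes formed the largest other group among the rises. Il1b, the inflammatory cytokine of macrophages, had 7.63, 7.23 and 8.25 in PH livers and 5.31, 5.44 and 4.77 in control livers. It rose by 2.53 (SE 0.31, limma adjusted p = 0.000686), kept its call in every fit with an array left out, and changed by 2.56 with the beadchip as a block (limma adjusted p = 0.0366). Il1b was detected on 2 of the 3 control arrays, so that the size of its rise is uncertain. Il1a, its relative, had 6.03, 6.62 and 5.96 in PH livers and 4.69, 4.8 and 4.73 in control livers, where it was not detected. It rose at least 2.2-fold (change 1.46, SE 0.29, limma adjusted p = 0.0246), though its second probe had a change of 0.54. No other of 7 cytokines of the IL-1, TNF and IL-6 families was called, and 0.28% of all genes were called higher. Il6 itself had a change of 0.17 (limma adjusted p = 0.884), but it was detected on only 1 of the 6 arrays, so that a change could hardly be seen. Tnf, Lif and Csf2 were detected on too few arrays to be tested.

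Ccl4, a chemokine made by activated macrophages, had 7.11, 6.71 and 6.55 in PH livers and 4.83, 4.6 and 5.16 in control livers (change 1.93, SE 0.27, limma adjusted p = 0.00234). It was detected on 1 of the 3 control arrays, so that the size of its rise is uncertain. It was the 1 call of 13 chemokines, and its call also held in every fit with an array left out and with the beadchip as a block (limma adjusted p = 0.0445). Cxcl1, which attracts neutrophils, had 11.47, 11.69 and 13.55 in PH livers and 10.05, 10.14 and 9.39 in control livers, and its change of 2.38 was not called (SE 0.52, limma adjusted p = 0.0529). S100a8 and S100a9, which encode the paired calcium-binding proteins of neutrophils and monocytes, were set apart by replicate 3. S100a8 had 7.61, 6.72 and 10.19 in PH livers and 4.62, 4.98 and 5.33 in control livers (change 3.19, SE 0.68, limma adjusted p = 0.0445). S100a9 had 6.96, 6.75 and 9.54 in PH livers and 4.6, 4.84 and 5.25 in control livers (change 2.86, SE 0.56, limma adjusted p = 0.0272). Both lost their call without PH 1 h replicate 3 or control replicate 1 or 2, S100a8 also without control replicate 3, with changes of 1.96 to 3.92. Each was detected on 1 of the 3 control arrays, so that the size of these rises is uncertain. Of 12 other settings that tested them, S100a8 kept its call in 4 and S100a9 in 5.

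A further 4 called genes are typical of blood-derived cells. Alox5ap, which leukocytes need to make leukotrienes, rose by 1.66 (SE 0.34, limma adjusted p = 0.0381), Coro1a, an actin regulator of leukocytes, by 1.53 (SE 0.30, limma adjusted p = 0.0272), and Lilr4b, an inhibitory receptor of myeloid cells, by 1.41 (SE 0.28, limma adjusted p = 0.0288). In these 3 genes PH replicate 1 was the highest array, with 8.01, 8.86 and 6.84, and replicate 2 the lowest, with 6.30, 7.60 and 5.60. The dimmer probes of Coro1a had changes of 1.75, 0.55 and 0.24. Lilr4b was detected on 1 of the 3 control arrays, so that the size of its rise is uncertain. Cytip, a regulator of leukocyte adhesion, rose by 1.82 (SE 0.38, limma adjusted p = 0.0437) and was lowest on replicate 1. Alox5ap, Coro1a and Lilr4b lost their call without PH 1 h replicate 1 or 3 or any 1 control, and Cytip and Il1a without PH 1 h replicate 2 or 3 or any 1 control. In the authors' values the changes of the 9 cytokine and leukocyte genes were smaller, at 0.22 to 1.03. Il1b (0.61) was the 1 call of the 9 there, and Ccl4 (0.34) was not called.

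Marker levels of leukocytes differed between these mice, and in whole tissue more cells of a type and more RNA per cell cannot be told apart. The summed signal of 9 Kupffer cell markers was 6226, 2165 and 3415 on PH arrays 1, 2 and 3, against 2608, 2488 and 1850 on control arrays 1, 2 and 3. All 9 had changes above 0, with a median of 0.68, and none was called. Marco, a scavenger receptor of macrophages, had the largest change of them (1.47, SE 0.42, limma adjusted p = 0.129). The sum of 8 neutrophil markers was 502, 402 and 2281 in PH livers, against 211, 211 and 239 in control livers. It includes the called genes S100a8 and S100a9, and so is not a measure separate from them. The 6 neutrophil markers other than S100a8 and S100a9 had changes of -0.06 to 1.07. The 2 monocyte markers tested summed to 1060, 512 and 755 in PH livers and 488, 515 and 454 in control livers. The part of these cells in the rise of the leukocyte genes was not tested.

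**Figure D3:**
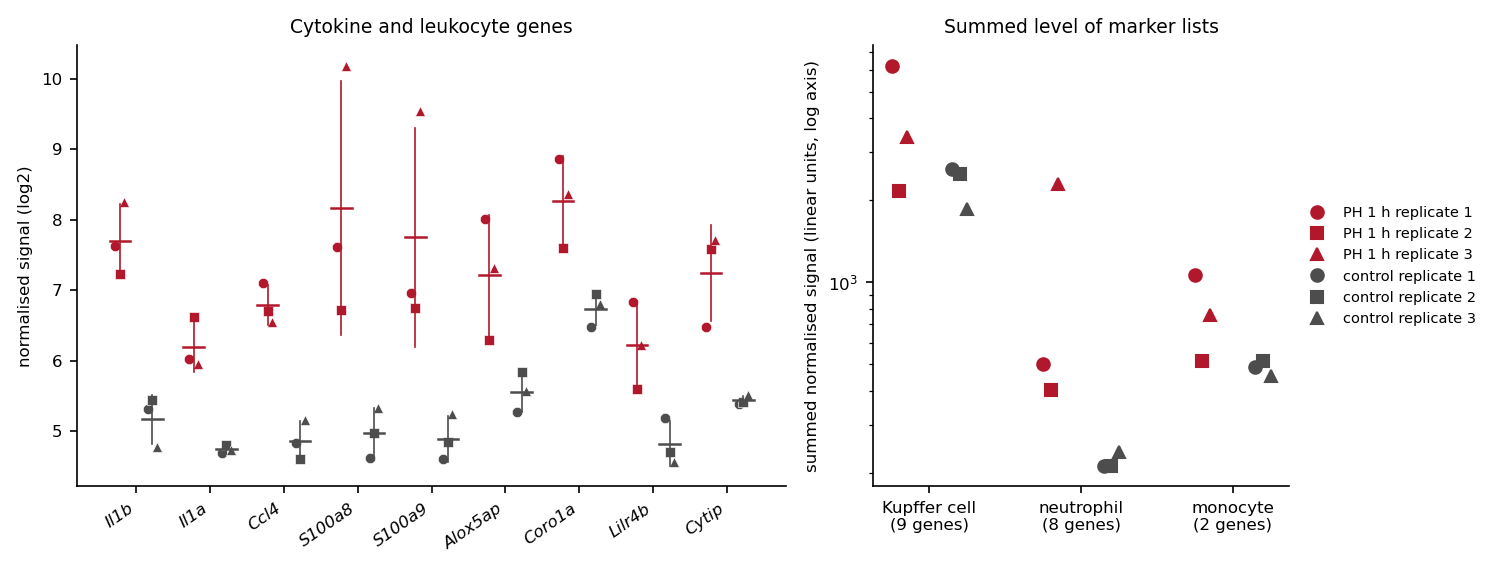
Left, log2 signal of 9 cytokine and leukocyte genes on each PH 1 h array (red, left of each pair) and each control array (grey), with means and 1 SD (n = 3). Right, the summed signal of the marker lists on a log axis, where PH replicate 1 is the highest for Kupffer cell markers (6226) and PH replicate 3 for neutrophil markers (2281). The neutrophil markers include S100a8 and S100a9 of the left panel.

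Signals that lie upstream and downstream of these cytokines were mostly not called at 1 h. None of 11 NF-kB subunits, inhibitors and targets was called, although all 11 had changes above 0, as 5681 of all 11442 genes did, with a median of 0.47. In 7 of the 11 the PH arrays lay wholly above the controls (11.2% of all genes). The largest were those of Nfkbiz (1.12, SE 0.40, limma adjusted p = 0.267) and Bcl3 (1.02, SE 0.36, limma adjusted p = 0.27). Of 14 acute-phase proteins, which the liver secretes in response to IL-1 and IL-6, none was called either, with a median change of 0.36. Saa1 had 12.92, 11.27 and 15.18 in PH livers and 10.60, 10.40 and 10.79 in control livers, so that the arrays did not overlap, as in 5 of the 14 in this direction (11.2% of all genes), and its change of 2.53 was not called (SE 0.65, limma adjusted p = 0.0923). The fibrinogen genes and Hp, which follow later in the acute phase, had changes of -0.14 (Fga), 0.84 (Fgb), 0.23 (Fgg) and 0.27 (Hp).

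Several genes of hepatocyte metabolism and transport rose. Sort1, a sorting receptor that acts in lipoprotein release, had 10.02, 9.20 and 9.93 in PH livers and 6.98, 6.72 and 6.53 in control livers (change 2.97, SE 0.51, limma adjusted p = 0.011), and its change with the beadchip as a block was 3.18 (limma adjusted p = 0.0445). A second bright probe gave 2.61. Nnmt, which methylates nicotinamide, had 11.50, 11.39 and 11.52 in PH livers and 8.42, 8.30 and 9.97 in control livers (change 2.57, SE 0.49, limma adjusted p = 0.0203). The PH mice were alike and control replicate 3 stood apart. Slc25a25, a mitochondrial carrier of ATP and phosphate, had 11.14, 12.94 and 13.03 in PH livers and 9.89, 10.09 and 9.85 in control livers (change 2.43, SE 0.42, limma adjusted p = 0.011).

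Tat and Sgk1 are classical targets of the glucocorticoid receptor. Tat, which encodes tyrosine aminotransferase, rose by 1.96 (SE 0.39, limma adjusted p = 0.0288), with 8.47, 9.53 and 9.03 in PH livers and 6.70, 7.34 and 7.11 in control livers. Sgk1, a kinase, rose by 1.48 (SE 0.28, limma adjusted p = 0.0194). These were the 2 calls among 10 genes of the glucocorticoid list (0.28% of all genes were called higher). The median change of the list was 0.35, and Tsc22d3 and Fkbp5, further targets, had changes of -0.07 and -0.67. None of the other 10 genes of amino acid breakdown and the urea cycle was called. Sort1 lost its call without PH 1 h replicate 3 or control replicate 1 or 2, and Nnmt, Slc25a25, Sgk1 and Tat without PH 1 h replicate 2 or 3 or control replicate 1 or 2, Tat also without control replicate 3, with changes of 1.28 to 3.23 for the 5 genes.

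The remaining rises were of mixed function. Hspa5, whose product BiP is the chief chaperone in the endoplasmic reticulum, had 8.93, 8.68 and 9.60 in PH livers and 7.96, 7.56 and 7.70 in control livers (change 1.33, SE 0.22, limma adjusted p = 0.0105), and Selenos, which acts in the removal of misfolded proteins from that compartment, rose by 0.87 (SE 0.14, limma adjusted p = 0.011). Hspa5 was the 1 call of 15 chaperones of the endoplasmic reticulum, whose median change was 0.19, and none of 11 heat shock proteins was called. Snora65, a small nucleolar RNA, rose by 1.68 (SE 0.29, limma adjusted p = 0.011). Tubb2b, a tubulin, rose by 1.90 (SE 0.39, limma adjusted p = 0.0381) on its brightest probe, while its 4 dim probes had changes of 0.01 to 0.39. Tubb1, a tubulin of platelets, was not detected in controls and rose at least 1.68-fold (limma adjusted p = 0.0477), with a change of 0.03 on its second probe, and Thumpd1, an RNA-binding protein, rose by 0.99 (SE 0.21, limma adjusted p = 0.0477). Hspa5 and Snora65 lost their call without PH 1 h replicate 3 or control replicate 2, Selenos also without control replicate 1, Tubb1 without PH 1 h replicate 3 or any 1 control, Tubb2b also without PH 1 h replicate 2, and Thumpd1 without any 1 of the 6 arrays.

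Among the falls Angptl4 stood first. It encodes a secreted inhibitor of lipoprotein lipase that is induced by fasting. The values are those of its bright probe, and a second, dim probe (mean log2 signal 4.78) had a change of -0.17. The log2 signal of Angptl4 was 9.89, 9.45 and 8.55 in PH livers and 11.96, 11.94 and 12.30 in control livers. Its change was -2.77 (limma adjusted p = 0.000658, SE 0.32), which is 6.83-fold lower in PH livers, and the groups lay more than 2 log2 units apart. The call held in every fit with an array left out, with changes of -3.07 to -2.40, with the beadchip as a block (-2.53, limma adjusted p = 0.0366) and in the authors' values (-2.40, limma adjusted p = 0.00143), and within beadchip 3 the change was -2.65.

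Mgll, the lipase that splits monoglycerides, had 10.40, 10.44 and 10.56 in PH livers and 11.33, 11.44 and 11.41 in control livers (change -0.93, SE 0.17, limma adjusted p = 0.0194). It lost its call without PH 1 h replicate 2 or 3 or any 1 control, while the change stayed within -0.97 to -0.89. Angptl4 and Mgll were the 2 calls, both lower, among 15 PPAR-alpha and fasting targets, whose median change was -0.64. Of all genes tested 0.122% were called lower. In 9 of the 15 the PH arrays lay wholly below the controls (10.8% of all genes). Retsat, a retinol saturase, had a change of -0.97 (SE 0.22, limma adjusted p = 0.0602) and Ppara itself, the nuclear receptor, one of -1.32 (SE 0.43, limma adjusted p = 0.225), whereas Pdk4, another fasting gene, had a change of 1.22 (limma adjusted p = 0.647).

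Of 16 mitosis genes tested 3 were called, all lower in PH livers (0.122% of all genes were), and the control mice differed among themselves in these. Birc5, which encodes survivin, a part of the chromosomal passenger complex, had 6.04, 5.20 and 5.15 in PH livers and 8.59, 8.22 and 6.49 in control livers (change -2.30, SE 0.44, limma adjusted p = 0.0203). Cdkn3, a phosphatase of cyclin-dependent kinases, had 5.57, 4.94 and 5.53 in PH livers and 8.43, 8.51 and 6.54 in control livers (change -2.48, SE 0.54, limma adjusted p = 0.049). Cdca2, which acts on chromosomes at the end of mitosis, had 5.34, 4.67 and 4.99 in PH livers and 7.09, 6.91 and 5.57 in control livers (change -1.53, SE 0.33, limma adjusted p = 0.0477). In all 3 genes control replicate 3, the control on beadchip 4, was the lowest control and still lay above the PH arrays. Cdkn3 was detected on 2 of the 3 PH arrays and Cdca2 on 1, so that the size of their falls is uncertain.

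All 16 mitosis genes had changes below 0, with a median of -1.45, and in 8 the PH arrays lay wholly below the controls (10.8% of all genes did), though the other 13 were not called, as with Cdc20 (-2.77, SE 0.77, limma adjusted p = 0.118), Plk1 (-1.80, SE 0.41, limma adjusted p = 0.0602) and Cdk1 (-1.43, SE 0.36, limma adjusted p = 0.0873). The median was -1.89 within beadchip 3 and -0.33 in the authors' values. In the other groups, set against the same 3 controls, it was -1.49 and -1.44 in the later PH livers (3 and 6 h) and -1.25, -1.75 and -1.11 in the TCP livers (1, 3 and 6 h). Birc5 and Cdca2 lost their call without PH 1 h replicate 2 or 3 or control replicate 1 or 2, and Cdkn3 also without PH 1 h replicate 1. Genes of DNA replication (17 tested, median change -0.07) and the G1 cyclins and their kinases (10 tested, median change -0.09) had no call, with a change of -0.73 for Ccnd1 (SE 0.30, limma adjusted p = 0.37).

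**Figure D4:**
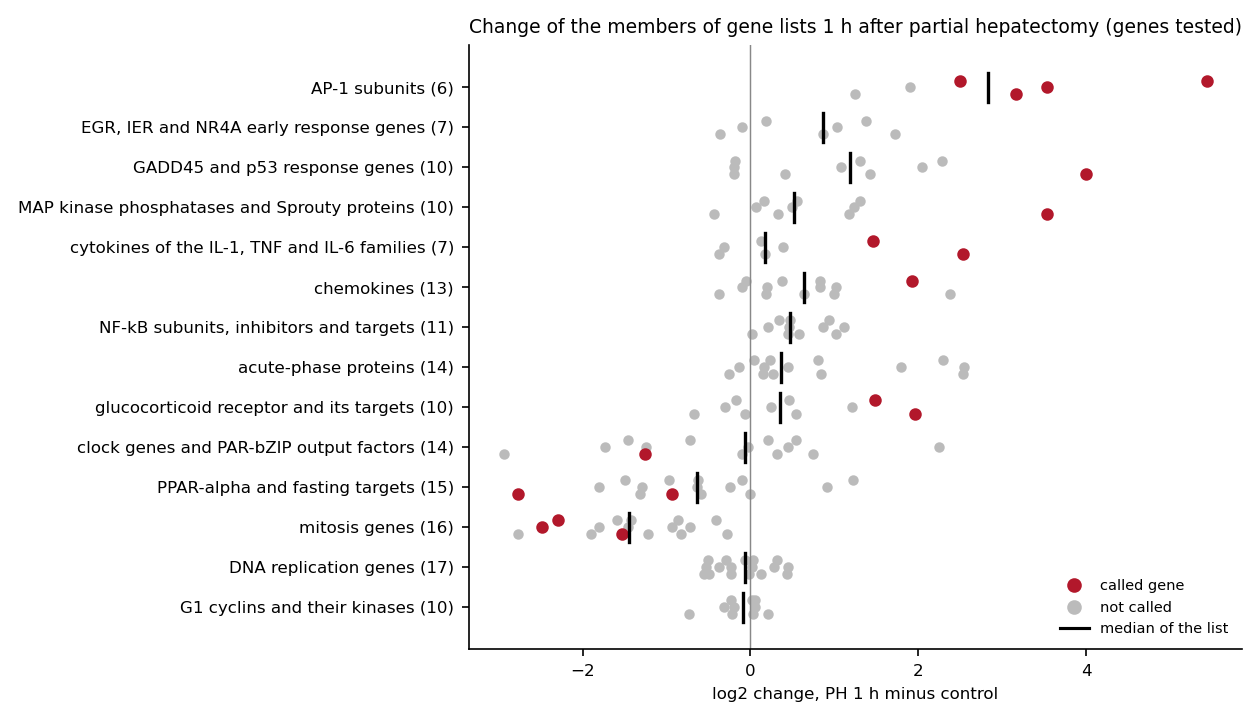
Log2 change of PH 1 h minus control for each gene tested in 14 lists, with the number tested in brackets, called genes in red, genes not called in grey and the median of each list as a black bar. AP-1 subunits lie farthest to the right (median 2.83) and mitosis genes farthest to the left (median -1.45), whereas DNA replication genes centre near 0 (median -0.07).

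The other falls belonged to no common list. Amn, the partner of cubilin in endocytosis, had 4.6, 4.8 and 5.22 in PH livers and 7.35, 7.08 and 7.58 in control livers (change -2.46, SE 0.36, limma adjusted p = 0.00386), and its call held in every fit with an array left out. It was detected on 1 of the 3 PH arrays, so that the size of its fall is uncertain. Amn was not called with the beadchip as a block (-2.53, limma adjusted p = 0.0571) or in the authors' values (-0.50). Lgals4, a galectin of the gut epithelium, had 6.87, 7.46 and 7.15 in PH livers and 9.16, 9.28 and 8.58 in control livers (change -1.85, SE 0.34, limma adjusted p = 0.0194), and a second probe gave -1.54. Pcsk4, a proprotein convertase known from germ cells, had 6.94, 7.10 and 6.61 in PH livers and 8.68, 8.70 and 8.6 in control livers (change -1.77, SE 0.30, limma adjusted p = 0.011), with changes of -1.06 to -1.95 on 3 further probes and of -1.96 with the beadchip as a block (limma adjusted p = 0.0445).

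Dido1, linked to cell death and stem cell division, had 7.66, 6.68 and 6.18 in PH livers and 8.52, 8.68 and 8.36 in control livers (change -1.68, SE 0.33, limma adjusted p = 0.0273), but its 5 other probes had changes of -0.34 to 0.60. Fam126b had 8.32, 8.20 and 8.05 in PH livers and 9.03, 9.29 and 9.14 in control livers (change -0.96, SE 0.18, limma adjusted p = 0.0194). Zfp655, a zinc finger gene, had 9.31, 9.26 and 8.89 in PH livers and 10.08, 10 and 10.06 in control livers (change -0.89, SE 0.19, limma adjusted p = 0.0488). The groups were close together and tight in both genes, and the dimmer probes of Zfp655 had changes of -0.50 and -0.03. Of the long non-coding RNAs, Snhg5 had 6.29, 6.19 and 6.09 in PH livers and 7.11, 7.02 and 7.06 in control livers (change -0.87, SE 0.15, limma adjusted p = 0.011). Lockd, transcribed beside the cell cycle inhibitor gene Cdkn1b, was not detected in PH livers (4.85, 4.56 and 4.6, against 6.27, 6.32 and 5.18 in control livers) and was at least 1.83-fold lower there. It was detected on the 3 control arrays alone, so that it entered the test only through the group where it was high and had to differ, and its signal on the other 15 arrays was 4.4 to 5.11. It was the 1 gene of the 46 of which this held.

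Tef, a circadian output factor of the PAR-bZIP family, had 9.14, 9.35 and 9.05 in PH livers and 10.39, 10.42 and 10.50 in control livers (change -1.26, SE 0.27, limma adjusted p = 0.0437). It was the 1 call among 14 clock genes and output factors, and its second, dim probe had a change of -0.27. Dbp, its close relative, had 9.89, 10.42 and 9.90 in PH livers and 12.95, 13.17 and 12.92 in control livers, wholly apart, with a change of -2.94 that was not called (SE 0.71, limma adjusted p = 0.0768). Arntl, which encodes the clock activator BMAL1, had 7.78, 7.78 and 7.67 in PH livers and 5.32, 5.71 and 5.45 in control livers (change 2.25, SE 0.57, limma adjusted p = 0.0913). The hour of day at which the livers were taken is not given in the sources used here, so that it cannot be told apart from the surgery. Tef lost its call without any 1 of the 6 arrays, Lgals4, Pcsk4 and Snhg5 without PH 1 h replicate 3 or control replicate 1 or 2, Fam126b and Lockd also without PH 1 h replicate 2, and Dido1 and Zfp655 further without control replicate 3, with changes of these 8 genes between -2.09 and -0.76.

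To see whether the 1 h pattern lasted, the 1 h livers were compared with those taken at 3 and 6 h after PH, with the caution that the genes had been chosen on the same 1 h arrays. Against control, 44 of the 46 had the same direction at 3 h and 44 at 6 h. At 3 h 39 of them were called (7.43% of all genes were) and at 6 h 35 (20.8%). The genes were also chosen on these same controls, which favours such a result. At 3 h minus 1 h, 193 of all genes were called (1.69%), and 3 of the 46 were among them, all higher at 3 h. Angptl4 was back at 12.39, 11.38 and 12.66 at 3 h and at 12.62, 12.56 and 12.91 at 6 h, so that it differed from the 1 h livers by 2.84 (SE 0.32, limma adjusted p = 0.000444) and 3.40 (SE 0.32, limma adjusted p = 1.28e-05). Set against control its change was -2.77 in the 1 h livers, 0.07 in the 3 h livers and 0.63 in the 6 h livers. Snhg5, low at 1 h, exceeded its 1 h level by 1.17 in the 3 h livers (SE 0.15, limma adjusted p = 0.000887) and by 2.38 in the 6 h livers (SE 0.15, limma adjusted p = 2.16e-08), and both differences held with the beadchip as a block (1.24 and 2.61). Zfp655 exceeded its 1 h level by 0.82 in the 3 h livers (SE 0.19, limma adjusted p = 0.0395), a call that was lost without PH 3 h replicate 1 or 3 or any 1 PH 1 h array.

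At 6 h minus 1 h, 2071 of all genes were called (18.1%), and of the 46 genes 7 were higher and 6 lower. Fosb had fallen back to 4.70, 6.46 and 4.54 at 6 h, lower than at 1 h (difference -3.05, SE 0.53, limma adjusted p = 0.000885), whereas the difference of Fos was -1.10 and was not called (SE 0.76, limma adjusted p = 0.331). Il1b and Ccl4 were also lower at 6 h, by differences of -1.34 (SE 0.31, limma adjusted p = 0.00574) and -1.33 (SE 0.27, limma adjusted p = 0.00236). Socs3, with 11.97, 11.66 and 12.54 at 6 h, was higher than at 1 h by 1.78 (SE 0.49, limma adjusted p = 0.016), though not without PH 1 h replicate 1 or PH 6 h replicate 3. For Fos, Atf3, Dusp1 and Jun the changes against control in the 1 h livers were 5.44, 5.17, 3.54 and 3.17. They were 5.32, 5.98, 3.74 and 4.0 in the 3 h livers and 4.34, 3.41, 3.00 and 2.93 in the 6 h livers, all against the same controls. No 6 h array shared a beadchip with the 1 h arrays, and with the beadchip as a block Snhg5 alone of the 13 genes kept its 6 h call.

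The 1 h livers were finally compared with livers taken 1 h after TCP, a growth stimulus without surgery, which lay on beadchips 2 and 4. At PH 1 h minus TCP 1 h, 31 of all genes were called (0.271%), 27 of them higher after PH (0.236%) and 4 lower (0.035%), and 9 of the 46 genes were among the 31. The 46 had been chosen on the same PH 1 h arrays, so that the 9 are not a separate test of them. Fos had 6.84, 5.90 and 6.04 after TCP and was higher after PH by 4.71 (SE 0.76, limma adjusted p = 0.00839). Fosb was higher after PH by 3.29 (SE 0.53), Socs3 by 3.19 (SE 0.49), Snora65 by 1.79 (SE 0.29) and Ccl4 by 1.66 (SE 0.27), each with a limma adjusted p of 0.00839. Il1b was higher after PH by 2.49 (SE 0.31, limma adjusted p = 0.000859) and Coro1a by 1.59 (SE 0.30, limma adjusted p = 0.0276). Angptl4 had 12.54, 12.57 and 12.49 after TCP and was lower after PH (difference -3.24, SE 0.32, limma adjusted p = 5.75e-05), as was Mgll (difference -0.87, SE 0.17, limma adjusted p = 0.0361).

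For the other genes the difference between the stimuli was not called, which does not show that they responded alike. Gadd45b had a change of 4.0 at 1 h after PH and of 3.66 at 1 h after TCP, against the same controls (difference 0.34, SE 0.75, limma adjusted p = 0.957). Tat, Klf2 and Sgk1 had differences of 0.06 (SE 0.39), 0.04 (SE 0.38) and -0.20 (SE 0.28). Among the falls, the changes at 1 h after PH and at 1 h after TCP, against the same 3 controls, were -2.46 and -1.98 for Amn, -1.77 and -1.68 for Pcsk4, -0.89 and -1.02 for Zfp655, and -0.87 and -0.81 for Snhg5. Against these controls 42 of the 46 genes had the same direction at 1 h after TCP. Of the 21 genes called there (0.184% of all), 10 were among the 46. The shared controls favour such a result. Angptl4 and Il1b kept the difference between PH and TCP in every fit with an array left out. Socs3 lost it without PH 1 h replicate 3, Fosb without PH 1 h replicate 3 or TCP 1 h replicate 2, Ccl4 without TCP 1 h replicate 1 or 2, Fos and Snora65 without PH 1 h replicate 3 or TCP 1 h replicate 2 or 3, Coro1a without each array but PH 1 h replicate 2, and Mgll without any 1 array. With the beadchip as a block none of the 31 was called, with 633 genes at an unadjusted p under 0.05, and the differences of the 9 genes kept their direction, as with -2.56 for Angptl4 (limma adjusted p = 0.245) and 2.88 for Il1b (limma adjusted p = 0.224).

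**Figure D5:**
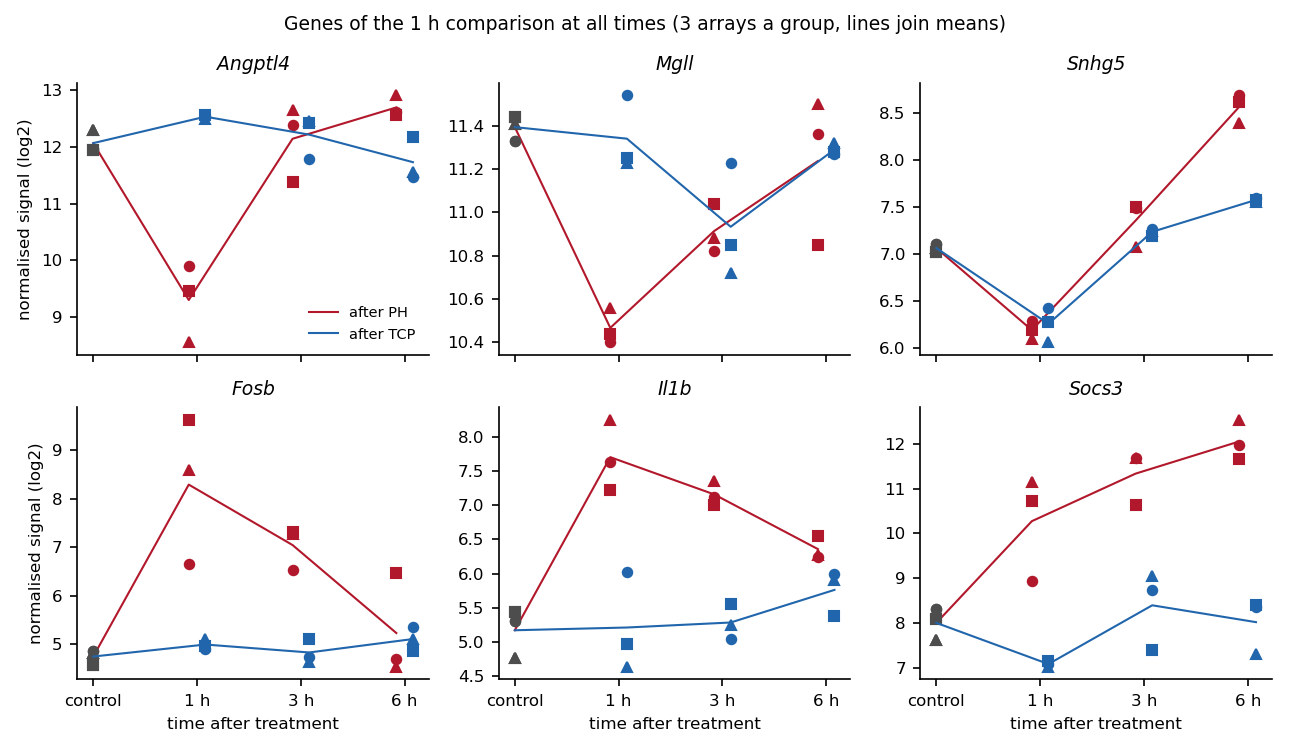
Log2 signal of 6 genes called at 1 h on every array of the control group and of the PH (red) and TCP (blue) groups by hours since treatment (1, 3 and 6), with symbols for replicate numbers and lines through the means. Angptl4 dips at 1 h after PH (9.89, 9.45 and 8.55) and is back near the controls (11.96, 11.94 and 12.30) at 3 h. The means of Fosb and Il1b are highest at 1 h after PH, while that of Socs3 is highest at 6 h. The differences of 3 h minus 1 h were not called for Fosb (-1.24) or Il1b (-0.54).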

How the data were processed

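Liver RNA of 21 mice in 7 groups of 3 was hybridised to Illumina mouse beadchips. The methods name the WG-6 v2.0 beadchip and the labels another mouse type. The authors deposited the signal of each probe as an intensity that was not normalised between arrays, and the detection p-value of each probe from BeadStudio. They also deposited quantile-normalised log2 values, used here only as an alternative. Signals were corrected and normalised with neqc (offset 16) in limma 3.58.1 (R 4.3.3). A probe was taken as detected if its detection p was below 0.05 in 3 or more arrays, and the 17970 of 21401 detected probes that had 1 gene symbol were kept, and the brightest stood for each of 11442 genes. One linear model with 7 groups and empirical Bayes moderation was fitted to all 21 arrays (18.9 total degrees of freedom), and p-values were adjusted over all genes. A bound ("at least") set the mean of the bright group against the lowest detected signal of each array of the dim group. The script was tested on simulated data. Alternatives changed 1 choice at a time, except that the authors' values differ in background step and normalisation together. Moderation with an intensity trend and robust estimation, changed together, was added after seeing the data. The comparison, gene lists and tests were chosen with earlier results of these data known, and genes were grouped by role after their values were seen. Named were the 15 largest called rises and falls, all called genes, and up to 3 list members with the largest change where fewer than 2 were called. Further list members (Junb, Jund, Il6, Stat3, Cebpa, Myc, Tsc22d3, Fkbp5, Hp, the fibrinogens, Retsat, Ppara, Pdk4, Cdc20, Plk1, Cdk1, Ccnd1) and the genes called without PH 1 h replicate 1 were named after their values were seen. Figures were drawn with matplotlib 3.10.9.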

Additional observations from a re-analysis of the deposited data

Results flagged for a closer look

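Of the genes called at 1 h, 13 differed between the 6 h and the 1 h PH livers and 3 between the 3 h and the 1 h PH livers, by a limma test of that difference. Higher at 6 h than at 1 h were Angptl4 (3.40), Snhg5 (2.38), Nnmt (1.95), Socs3 (1.78), Lgals4 (1.00), Cebpb (0.79) and Mgll (0.77), on the log2 scale. Lower at 6 h were Fosb (-3.05), Sort1 (-1.93), Il1b (-1.34), Ccl4 (-1.33), Foxk2 (-0.97) and Coro1a (-0.88). Higher already at 3 h were Angptl4 (2.84), Snhg5 (1.17) and a further gene, Zfp655 (0.82). Of the 6 h differences, those of Socs3, Sort1, Lgals4, Cebpb, Foxk2 and Coro1a lost their call without at least 1 array, and those of Lgals4 and Coro1a were left in 1 of 6 such fits.

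Outside the gene table, 13 of 3431 detected probes without a single gene symbol were called at 1 h, 7 of them higher and 6 lower in PH livers. Their genes are not named here.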

How the results depend on the processing

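The 46 genes called at 1 h numbered 13 in the authors' normalised values, 28 without the filter on detection, 101 in a model of the 6 arrays alone, 5 with the beadchip as a block and 1 within beadchip 3. Genes higher were 17 with no background correction, 21 with median scaling, 6 in the authors' values, 18 without the filter, 3 with the beadchip block and 1 within beadchip 3, against 32. Genes lower were 26 with an offset of 50, 7 in the authors' values, 55 in the model of 6 arrays, 27 with trend and robust moderation, 2 with the beadchip block and 0 within beadchip 3, against 14. Of the 101 genes called in the model of the 6 arrays alone, 23 were among the 46. Those that lost their call there included Fosb, Jun, Fosl2, Gadd45b, Zfp36, Socs3, Slc25a25, S100a8 and S100a9. With 1 array left out the calls ranged from 7 (without control replicate 2) to 109 (without PH 1 h replicate 1), the higher ones from 5 to 71 and the lower ones from 2 to 38.

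The 193 calls at 3 h minus 1 h were 121 with no background correction, 83 with median scaling, 49 in the authors' values, 88 without the filter, 75 with the filter of the methods, 1 in a model of these arrays alone, 8 with the beadchip block and 0 within beadchip 3 (1001 at an unadjusted p under 0.05), and 6 (without PH 3 h replicate 3) to 842 (without PH 3 h replicate 2) with 1 array left out. The 31 calls at PH minus TCP were 20, 7, 0 (1221 unadjusted) and 0 (633 unadjusted) with no background correction, in the authors' values, in a model of these arrays alone and with the beadchip block, and 4 (without PH 1 h replicate 3) to 77 with 1 array left out. The cause was not tested. In the authors' values the median SE was 0.32 times and the median change of the called genes 0.43 times the value used here, and with the beadchip block the median SE was 1.26 times.

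With the replicate number as a block 59 genes were called, 41 of them among the 46, and 47 at PH minus TCP. Deviations of same-numbered arrays correlated at 0.028, -0.023 and -0.009, so the arrays share only a number. The 46 genes kept their direction under each setting that tested them, and the filter of the methods left 28 of them untested. Of the list medians, 5 moved by more than the spread (AP-1 to 1.22 and Kupffer markers to 0.31 in the authors' values, mitosis to -0.72 with no background correction and -0.33 in the authors' values, and cholangiocyte markers to 0.49 with the beadchip block). The number of arrays limits the precision, and 32 of the 46 genes were detected on all 6 arrays.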

Other observations

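Targets of the transcriptional co-activator YAP had no call, with 5 tested and a median change of 1.24. Ccn1, an early secreted matrix protein, had a change of 2.22 (limma adjusted p = 0.267) and Ccn2, its relative, of 1.72 (limma adjusted p = 0.0776), and Ccn2 was called without PH 1 h replicate 1 (2.03, limma adjusted p = 0.0335). Hilpda, a protein of lipid droplets, had the largest change of 8 hypoxia response genes (2.2, limma adjusted p = 0.344). None of 19 cytochromes P450, 12 genes of bile acid synthesis and sterol transport, and 17 genes of ribosome biogenesis and polyamine synthesis was called. The 5 red blood cell genes had summed signals of 19609 to 39694 in PH livers and 23971 to 42228 in control livers.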
